A study of Macaca fascicularis with 18 samples.

Results

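Kidney cortex was compared with liver in cynomolgus monkeys (Macaca fascicularis), from 11 of the 18 RNA-Seq libraries of the data set. The libraries carry kidney cortex or liver as their tissue label, and a single liver library was left out for its expression values. They comprised 6 kidney cortex samples (3 from each of the animals A1 and A2) and 5 liver samples (3 from A1 and 2 from A2). Both animals were females of about 10 years on a standard primate diet, euthanised with pentobarbital after anaesthesia with ketamine and midazolam, and no other treatment is named in the sources used here. From each sample, 5 mg of tissue gave the RNA, of which 200 ng entered a poly(A)-selected library sequenced as paired reads of 85 bp. The remaining 7 libraries were 6 samples of cerebral cortex, called brain here and used only as an outside reference, and the first liver sample of A2. Kidney cortex is called kidney here, and a sample is named by tissue, animal and number, such as kidney A2-3.

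Liver A2-1 was left out because it did not resemble the other liver samples. Its median Pearson correlation across genes was 0.603 with the remaining liver samples, which reached medians of 0.970 to 0.983 with each other, and 0.729 with the kidney samples. In liver A2-1, 49 genes at 100 RPKM or more stood at least 10-fold above their median in the 11 libraries and took 59.2% of its summed RPKM. These 49 genes held 0.332% to 0.524% in the liver samples that were kept. The shares of the 10 highest genes, the counts of genes that differed and the named liver genes are given below also with this sample kept.

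The kidney cortex holds the glomeruli, where the primary urine is filtered, and the tubules, which take back salts, sugars, amino acids and filtered protein through transporters of their epithelium. The liver consists mainly of hepatocytes, which secrete most plasma proteins, form bile and urea and break down drugs and amino acids. Hepatocytes devote much of their messenger RNA to a limited set of secreted proteins. Both organs make glucose and share several regulators of epithelial metabolism, and in both the bulk tissue also contains endothelial, stromal and blood cells. In bulk samples, fewer cells of a type and less RNA per cell cannot be told apart.

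The deposited values are RPKM, in which the reads of a gene are scaled to its length and to the size of the library. Of 29324 Ensembl genes, 13467 were tested, namely those that reached 1 RPKM in no fewer than 3 of the 11 samples. None of the identifiers could be paired with a gene symbol (0 matches), so that the tissue labels could not be checked against marker genes and lists of pathway genes could not be counted. At most 2 identifiers in each direction are named, and all other genes are described as groups. An RPKM table holds no read totals. The number of genes listed at 0, which falls with depth, ranged from 10734 to 12284 in kidney and from 11638 to 12628 in liver. The highest number in kidney was that of kidney A2-2, and the next was 11251.

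Expression in liver was concentrated on fewer genes than in kidney. The 100 highest genes of a sample took 36.7% to 41.0% of the summed RPKM in kidney and 54.3% to 58.0% in liver, without overlap. The 1000 highest genes took 67.1% ± 0.229 in kidney and 82.1% ± 0.717 in liver (mean ± SD of the means per animal, n = 2 animals). The single highest gene took 3.89% to 6.07% in kidney and 9.08% to 13.6% in liver. For the 10 highest genes the sample ranges overlapped, at 18.8% to 23.6% in kidney and 23.1% to 28.2% in liver. The difference of the animal means for these 10 genes was -4.29 percentage points, and -10.8 with liver A2-1 kept. The exact permutation test over the animal means gave p = 0.333 (two-sided) for each of these measures, the smallest p that 2 animals against 2 allow.

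**Figure D1:**
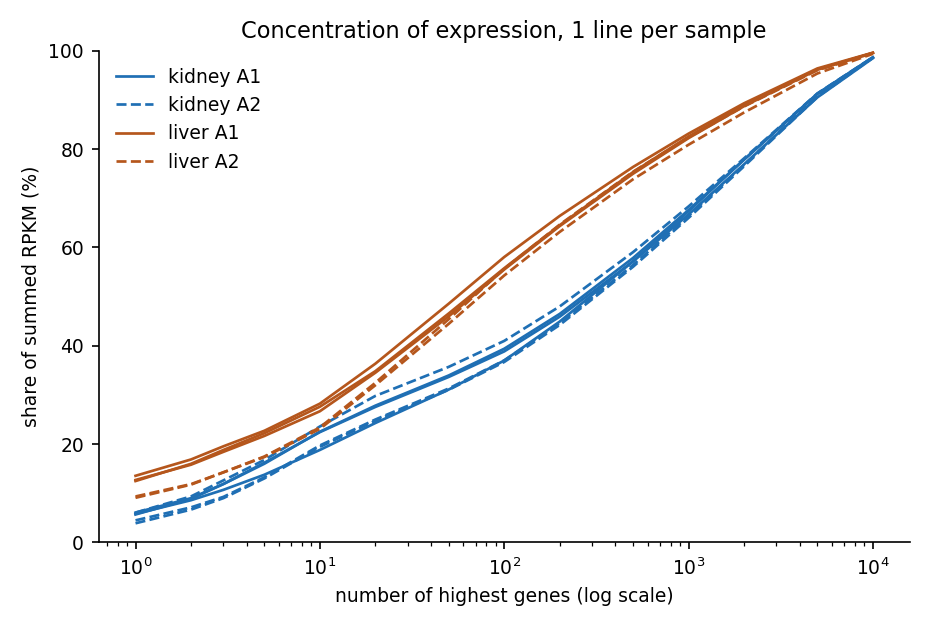
Share of the summed RPKM (%) held by the highest genes of each sample, against the number of genes counted (log scale), with 1 line for each of 6 kidney and 5 liver samples and dashed lines for A2. At 100 genes, the liver lines lie between 54.3% and 58.0% and the kidney lines between 36.7% and 41.0%.

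The gene at the top differed as well. The highest gene of kidney stood at 30032 ± 5760 RPKM in kidney (SD, n = 6 samples) and was also abundant in liver, at 14431 ± 1903 (SD, n = 5 samples). The highest gene of liver stood at 59873 ± 11323 RPKM in liver and at 4.08 ± 3.85 in kidney. Of the 10 highest genes of each tissue, 3 were the same, and these 3 were also among the 10 highest of brain. Of the 100 highest genes of each tissue 32 were shared, and 19 of these were also in the first 100 of brain. Of the 1000 highest genes of each tissue, 600 were shared.

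Most genes had a lower RPKM in liver than in kidney. The median tested gene stood at 9.64 to 10.3 RPKM in the kidney samples and at 3.97 to 4.83 in the liver samples. Genes at 1 RPKM or more numbered 12841 ± 82.0 in kidney and 10642 ± 284 in liver (mean ± SD of the means per animal, n = 2 animals). On the scale log2(RPKM + 1), which understates the change of low genes, kidney exceeded liver by a median of 0.99 over the tested genes. Scaling factors by the median of ratios, which assume that the typical gene is equal between samples, lay between 1.45 and 1.51 in kidney and between 0.593 and 0.716 in liver. After division by these factors the median log2 difference was 0.03, and 12131 ± 35.6 genes in kidney and 11513 ± 174 in liver reached 1. The counts of genes are therefore given for deposited and for scaled values. Which of the 2 is nearer to RNA per cell cannot be told from these data.

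In the deposited values, 7285 of 13467 genes (54.1%) differed between kidney and liver in limma's moderated test on the means per animal (n = 2 animals, Benjamini-Hochberg adjusted p below 0.05 and an absolute log2 difference of at least 1). Higher in kidney were 6493 genes (48.2%), and higher in liver were 792 (5.88%). In the scaled values, 3529 genes (26.2%) differed, with 1817 (13.5%) higher in kidney and 1712 (12.7%) higher in liver. The share of calls on the kidney side thus went from 89.1% to 51.5% with the scale. It was 55.3% after quantile normalization and 71.5% after scaling to equal sums without the 100 highest genes of any sample. With liver A2-1 kept, 6672 genes passed in the deposited values (6065 higher in kidney and 607 in liver) and 2175 in the scaled values (1174 and 1001).

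**Figure D2:**
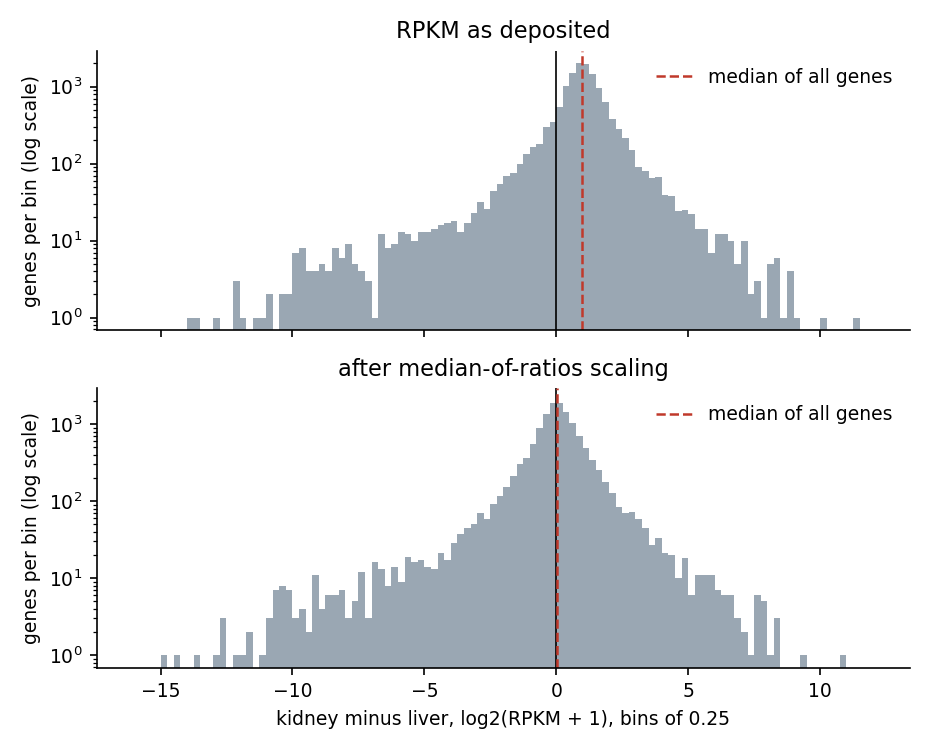
Number of genes (log scale) by the difference of kidney minus liver in log2(RPKM + 1), for the 13467 tested genes, in deposited values above and in scaled values below. The dashed median of all genes moves from 0.99 to 0.03 between the panels, and the left side, where liver is higher, reaches farther from 0 in both.

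For some genes, the call did not depend on the choice between deposited and scaled values, with 1817 genes called higher in kidney and 791 higher in liver in both. No gene was called higher in kidney on the deposited scale and higher in liver on the other (0 genes). This was fixed in advance, since the scaling factors move a difference by too little to carry it from the kidney limit to the liver limit. Another 4676 genes called higher in kidney in the deposited values had no call after scaling. Of the 1817 kidney genes, 1799 had all 6 kidney samples above all 5 liver samples on both scales, and of the 791 liver genes, 784 had all liver samples above all kidney samples. These counts follow largely from the choice, since the calls were made on the same samples. Among all tested genes, 72.4% had every kidney sample above every liver sample in the deposited values and 26.9% in the scaled values, and 8.07% and 24.8% had every kidney sample below. Small differences in log2(RPKM + 1) were also found. The 95% interval of the difference lay within 1 log2 unit on either side of 0 for 2052 genes (15.2%) in the deposited values and for 6265 genes (46.5%) in the scaled values. The pseudocount of 1 shrinks the difference of low genes, so that these counts can include low genes that differ by a larger fold.

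The genes called on both scales differed in abundance between the sides. Their numbers follow from the choice, since all 1817 kidney calls in the scaled values had also been called in the deposited values, whereas 791 of the 1712 liver calls had. The 791 liver genes had a median of 31.6 RPKM in liver and 1.97 in kidney, and the 1817 kidney genes had a median of 12.9 RPKM in kidney and 0.626 in liver. All 1712 genes called higher in liver in the scaled values had a median of 20.5 RPKM in liver and 6.16 in kidney. The liver genes together took 50.1% to 53.8% of the summed RPKM of the liver samples and 2.37% to 2.68% of the kidney samples. The kidney genes took 14.7% to 16.3% of the kidney samples and 0.940% to 1.21% of the liver samples. These shares describe genes that were chosen for their levels in the same samples. In the brain samples, which had no part in the choice, the kidney genes took 10.7% to 11.5% and the liver genes 2.30% to 2.45%. In liver A2-1 the liver genes took 1.24% and the kidney genes 3.81%.

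**Figure D3:**
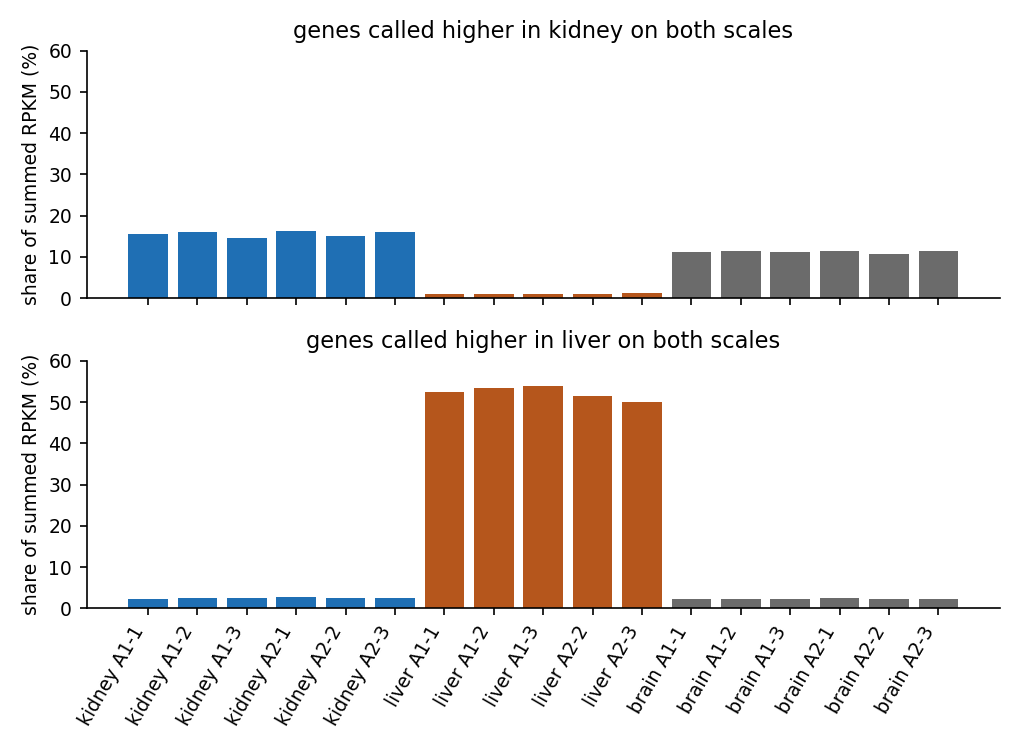
Share of the summed RPKM (%) in each kidney, liver and brain sample taken by the 1817 genes called higher in kidney on both scales (above) and by the 791 genes called higher in liver on both scales (below), liver A2-1 left out. The liver genes reach 50.1% to 53.8% of the liver samples, while the kidney genes reach at most 16.3% of the kidney samples.

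The balance between the tissues was also counted by the level of the gene. A gene that is high in a single tissue enters the high classes through that tissue, and liver had more of its summed RPKM in few genes, so that the counts of the high classes are a description and not independent of the concentration given above. Among 5334 genes with a mean of 2 to 10 RPKM over both tissues, 15.9% were higher in kidney and 9.11% in liver in the scaled values. From 50 to 250 RPKM there were 1107 genes, of which 13.8% were higher in kidney and 24.5% in liver. From 250 to 1000 RPKM, 24 of 233 genes were higher in kidney and 97 in liver. At 1000 RPKM and above, 2 of 54 genes were higher in kidney and 31 in liver. The deposited values gave 2723 kidney and 196 liver genes in the lowest of these classes and 16 kidney and 28 liver genes in the highest. They gave 522 kidney and 154 liver genes from 50 to 250 RPKM, and 68 and 61 from 250 to 1000 RPKM. In these classes between, the order thus depended on the scale. The median log2 difference at 1000 RPKM and above was -1.44 in the deposited and -2.64 in the scaled values.

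Large differences were also uneven. A difference of at least 4-fold (2 log2 units, here without the test) was found for 1595 genes on the kidney side and 448 on the liver side in the deposited values, and for 667 and 782 in the scaled values. At 16-fold or more the numbers were 257 and 220 in the deposited and 150 and 280 in the scaled values, so that the order depended on the scale at both limits. At 64-fold or more the deposited values gave 74 and 112 and the scaled values 42 and 154. At 256-fold or more these were 19 and 61, and 6 and 80. Since a pseudocount of 1 bounds the difference of low genes, it was lowered to 0.1. With this pseudocount, kidney genes outnumbered liver genes on both scales at 4-fold (3104 and 615 deposited, 1443 and 1017 scaled) and at 16-fold (779 and 301, 443 and 414), so that the scaled order at these limits also turned with the pseudocount. The deposited values gave 244 kidney and 182 liver genes at 64-fold, which turned the order, whereas the scaled values gave 147 and 232. At 256-fold, liver genes outnumbered kidney genes under each of these settings, with 107 against 83 in the closest of them.

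Some genes were nearly restricted to a single tissue of the pair. In the deposited values, 222 genes had at least 10 RPKM in all 6 kidney samples and less than 1 in all 5 liver samples, and 125 genes had the opposite pattern. After scaling, the numbers were 126 and 163, so that their order depended on the scale. With a limit of 100 in place of 10, 29 genes were restricted to kidney and 65 to liver in the deposited values, and 18 and 75 in the scaled values. The 65 liver genes had a median of 451 RPKM in liver and the 29 kidney genes a median of 296 in kidney. Of the 222 kidney genes, 19 were listed at 0 in all liver samples, and of the 125 liver genes, 8 were listed at 0 in all kidney samples. In liver A2-1, 97 of the 222 kidney genes and 24 of the 125 liver genes reached 1 RPKM.

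Brain was used to ask how far these genes are shared with another tissue. A mean of at least 1 RPKM in the 6 brain samples was found for 86.0% of all tested genes, for 74.4% of the 1817 kidney genes and for 53.9% of the 791 liver genes. Of all 1712 genes higher in liver in the scaled values, 69.7% reached this level. Of the 222 genes restricted to kidney, 51.4% reached 1 RPKM in brain, and of the 125 genes restricted to liver, 11.2% did. For the genes chosen on scaled values these shares were 41.3% of 126 and 17.8% of 163, with the brain values still as deposited. The kidney genes had a median of 6.23 RPKM in brain and the liver genes 1.36, against 8.65 for all tested genes. Brain was above both tissues for 32.8% of the kidney genes, 8.72% of the liver genes and 38.1% of all tested genes. Across the tested genes, kidney and liver samples had Pearson correlations of 0.633 to 0.661, kidney and brain 0.568 to 0.605, and liver and brain 0.408 to 0.443, as a description over genes that were selected on kidney and liver.

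The named genes are the 2 largest differences in each direction among genes called on both scales, with samples that did not overlap and at least 100 RPKM in the higher tissue. Values are RPKM as deposited unless called scaled. ENSMFAG00000045632, the 16th highest gene of kidney, had 2427, 3153 and 1451 RPKM in kidney A1-1 to A1-3 and 2482, 4132 and 2358 in kidney A2-1 to A2-3. It was listed at 0 in all 5 liver samples, so that no fold is given. Its adjusted p in limma was 2.32e-05, and in the scaled values, where kidney stood at 1809 ± 623 (SD, n = 6), it was 2.57e-05. The kidney samples differed more within each animal than the means of the animals did, which were 2343 for A1 and 2990 for A2. In brain, the gene was listed at 0 or at no more than 0.445 RPKM, except for 1.499 in brain A2-3.

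ENSMFAG00000032670 had 1530, 1745 and 1225 RPKM in the kidney samples of A1 and 1289, 1103 and 1259 in those of A2. In liver it had 0.125, 0.039 and 0.036 RPKM in A1 and 0.262 and 0.693 in A2. All 6 kidney samples thus exceeded all liver samples by more than 3 orders of magnitude. The log2 difference was 10.07 ± 0.22 (SE, adjusted p = 3.36e-05 in limma) in the deposited and 9.39 ± 0.25 (adjusted p = 5.06e-05 in limma) in the scaled values. The liver values lie below the pseudocount of 1, and with 0.1 the deposited difference was 12.15. In brain it reached 0.844 RPKM in brain A2-3, with a median of 0.020.

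ENSMFAG00000000097, the highest gene of liver, had 71238, 65932 and 66853 RPKM in liver A1-1 to A1-3 and 47240 and 48099 in liver A2-2 and A2-3. In kidney it had 6.96, 7.94 and 7.85 RPKM in A1 and 0.528, 0.610 and 0.587 in A2. The liver samples of A1 were all higher than those of A2, and the kidney samples of A1 were 13.2-fold higher than those of A2 at the means. As a share of the liver level of the same animal, kidney stood at 0.0111% in A1 and 0.00121% in A2. The log2 difference of kidney over liver was -13.92 ± 0.81 (SE, adjusted p = 0.000279 in limma) in the deposited and -14.89 ± 0.73 (adjusted p = 0.000233 in limma) in the scaled values. Its values in brain did not exceed 0.213 RPKM, and in liver A2-1 it had 12.8. With that sample kept, the log2 difference in the deposited values was -11.96 (adjusted p = 0.00702 in limma). With a pseudocount of 0.1 and without that sample it was -14.61.

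ENSMFAG00000031068, the second gene of liver, had 14090, 16144 and 18769 RPKM in liver A1 and 13917 and 12372 in liver A2. In kidney it was listed at 0 in A2-1 and A2-2 and had 0.111 RPKM in A2-3, 0.078 in A1-1 and 0.090 in A1-2. Kidney A1-3 stood apart with 0.844. The log2 difference was -13.62 ± 0.21 (SE, adjusted p = 2.32e-05 in limma) in the deposited and -14.32 ± 0.23 (adjusted p = 2.44e-05 in limma) in the scaled values. Since the kidney values lie below the pseudocount of 1, the size of the difference depends on it and was -16.14 with a pseudocount of 0.1 in the deposited values. With liver A2-1 kept, where the gene had 3.24 RPKM, it was -11.69 (adjusted p = 0.00572 in limma).

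**Figure D4:**
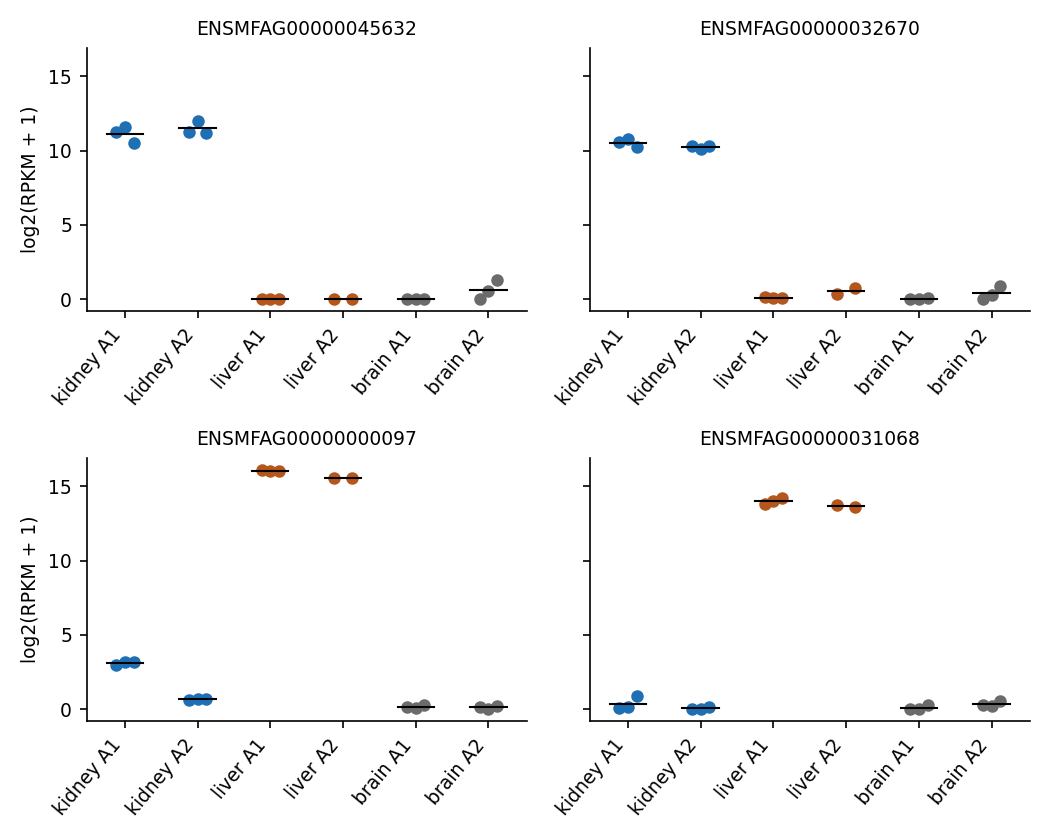
Values of the 4 named genes in log2(RPKM + 1), 1 point per sample, by tissue and animal, with the mean of each animal as a bar and liver A2-1 left out. The kidney samples of A1 lie above those of A2 for ENSMFAG00000000097, at 6.96 to 7.94 against 0.528 to 0.610 RPKM.

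The level that abundant genes of a tissue had in the other tissue was examined next. At 100 RPKM or more in all 5 liver samples, 86 genes were below 1% of their lowest liver value in each kidney sample. This choice was made after the values were seen and fixes that their kidney levels are low, so that only the range among samples is described. The 86 genes stood at a median of 0.0127% to 0.0209% of the liver level of the same animal in the 6 kidney samples. Their summed level was 0.0405% to 0.0482% of that in liver, from 0.0416% to 0.0452% in A1 and from 0.0405% to 0.0482% in A2. The ranges of the animals overlapped in both measures, which do not show how single genes differed. The reverse choice gave 34 kidney genes, which stood at a median of 0.00670% to 0.00770% of the kidney level in the 3 liver samples of A1 and at 0.0353% and 0.0419% in liver A2-3 and A2-2. Their summed level differed less between the animals, at 0.0628% to 0.0871% in A1 and at 0.0911% and 0.137% in A2.

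The difference between the tissues was similar in the 2 animals. Computed within each animal, the log2 differences had a Pearson correlation of 0.940 over the 13467 genes, a description since genes are not replicates. The same sign was found in both animals for 94.4% of genes in the deposited and 84.4% in the scaled values. The difference over both animals was above 0 for 86.5% of genes in the deposited and 51.9% in the scaled values. A common shift to the kidney side raises the agreement of signs by itself. In A1, 7043 genes were at least 2-fold higher in kidney and 848 in liver, and in A2 the numbers were 6169 and 841. In the scaled values, they were 2113 and 1988 in A1 and 1871 and 1760 in A2. A difference of 2-fold or more in opposite directions was found for 17 genes, and for 19 in the scaled values. The median absolute difference between the animals was 0.19 log2 units in kidney and 0.21 in liver, against 1.08 between the tissues. In the scaled values, these medians were 0.18, 0.22 and 0.52. Between the animals, limma's test over samples found 389 genes (2.89%) in kidney and 467 (3.47%) in liver in the deposited values, and 316 (2.35%) and 583 (4.33%) in the scaled values. The spread in this test is that between samples of an animal, so that the counts describe these 2 animals only.

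**Figure D5:**
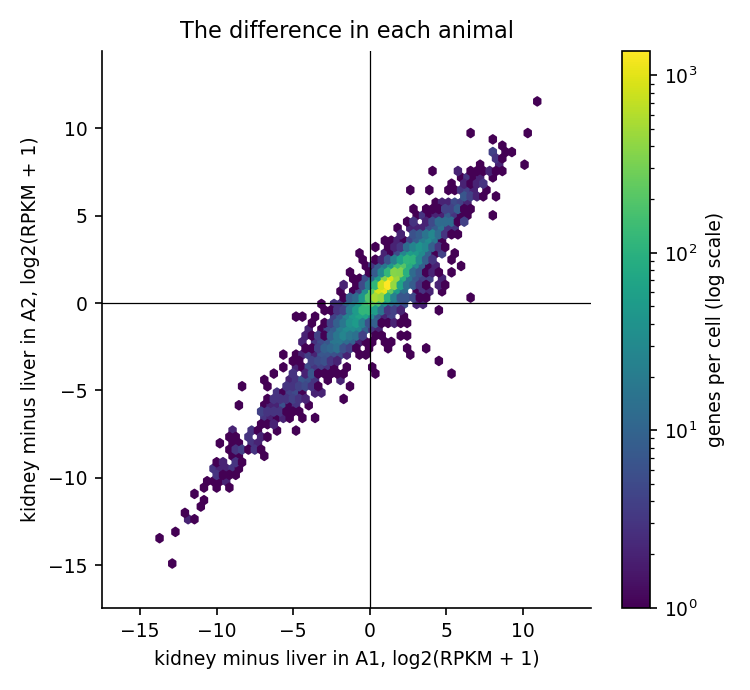
Difference of kidney minus liver in log2(RPKM + 1) in A1 (horizontal) and in A2 (vertical), deposited values, with the number of genes per cell as colour (log scale). Most genes lie along the diagonal, 94.4% have the same sign in both animals (84.4% in the scaled values), and 17 genes lie at least 1 unit from 0 in opposite directions.

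For 717 genes (5.32%) the kidney-liver difference itself differed between the animals. This was tested with limma on the 11 samples (adjusted p below 0.05 and at least 1 log2 unit), where the spread is that between samples of an animal, so that it compares these 2 animals only. The excess of kidney was larger in A2 for 280 genes and larger in A1 for 437. With a pseudocount of 0.1, 1167 genes passed, 376 and 791 in these directions. In the scaled values 751 genes (5.58%) passed, 379 and 372 in these directions, and 630 genes passed in the same direction on both scales. Of the 717 genes, 548 had the same sign of the kidney-liver difference in both animals, and of the 751 in the scaled values, 522 did. A called difference between the animals was present in liver and not in kidney for 261 of them, in kidney and not in liver for 195, and in both for 29. For the 751 genes of the scaled values, these numbers were 334, 154 and 33. Among the named genes, ENSMFAG00000000097 passed, with a log2 difference of -12.95 in A1 and -14.89 in A2 (interaction -1.93 ± 0.11, SE, adjusted p = 8.40e-07 in limma). In the scaled values its interaction was -1.48 ± 0.14 (SE, adjusted p = 1.93e-05 in limma). Its kidney values in A2 lie below the pseudocount of 1, so that the size of the interaction depends on the pseudocount. Of the 49 genes that were high in liver A2-1, 29 were tested and 16 were among the 717. These genes took 0.116% to 0.169% of the summed RPKM in the kidney samples of A1 and 0.0517% to 0.0642% in those of A2. In liver they took 0.509% to 0.524% in A1 and 0.332% to 0.351% in A2. Without them, a choice made after seeing the data, 701 genes passed. With liver A2-1 kept, 329 genes passed.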

How the data were processed

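RNA-Seq was measured in 18 samples, of which 11 were compared. The authors aligned reads with STAR 2.5.2a11 to the Ensembl version 92 genome, and deposited RPKM values on a linear scale, unfiltered and not pooled. Cufflinks 2.2.114 and featureCounts are both named, and the sources do not say which gave the RPKM. The labels and the methods also name different library kits, without and with strand. Sample labels gave tissue, animal and number, and columns were assigned by the sample descriptions.

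No count model was applied to the RPKM. Genes reaching 1 RPKM in 3 or more of the compared samples were transformed to log2(RPKM + 1), averaged per animal and tissue, and tested with limma 3.58.1 in R 4.3.3 (eBayes with trend, Benjamini-Hochberg adjusted p-values, n = 2 animals). The 3 samples of an animal are repeated samples of it. Median-of-ratios factors used the 14631 genes above 0 in all 11 samples. Differences between animals were tested on the 11 samples. Other values were computed in Python 3.11.15 with numpy 2.4.6. Samples compared and the tests were chosen with earlier results of these data known, and so were the lists of marker genes, which could not be applied. The named genes are the 2 with the largest differences in each direction among genes called on both scales, with non-overlapping samples and a mean of at least 100 RPKM in the higher tissue.

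The fits were tested on simulated data before use. The test on animal means recovered 77.5% of 200 genes changed by 2 log2 units and 94.5% of 200 changed by 4. It called 8 and 6 other genes. These changed genes were drawn above a set level, so that recovery of low genes was not tested. The interaction test recovered 95.5% of 200 genes changed by 2 log2 units and called 1 other gene, in data simulated without other differences between animals. The RPKM table holds no read totals, and estimates of relative depth from the steps of low values failed when tested and were not used, so that no counting intervals are given. Near-identical gene copies could not be looked up, since no identifier had a symbol. Alternatives for the pseudocount, filter, scaling, averaging, replicate block and samples are given in the closing section. Kidney and liver samples come from the same animals, and the pairing by animal is given by the labels. The deviations from the tissue mean correlated across genes by 0.183 on average for a kidney and a liver sample of 1 animal with different numbers, by 0.0466 with the same number, and by -0.138 between animals.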

Additional observations from a re-analysis of the deposited data

Results flagged for a closer look

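In 20 groups of 5 or 6 samples, single samples were screened for a gap to their nearest neighbour above Dixon's critical value (0.625 of the range for 6 samples, 0.710 for 5), where chance gives about 1 flag. This held in 2 groups. Kidney A2-2 had 12284 genes listed at 0, and kidney A1-3 had 0.844 RPKM of ENSMFAG00000031068. The difference between kidney and liver differed between the animals for 717 genes in limma's interaction test, and for ENSMFAG00000000097 it was lower by 1.93 log2 units in A2 (interaction of -1.93, adjusted p = 8.40e-07 in limma). In the scaled values this interaction was -1.48 (adjusted p = 1.93e-05 in limma). Liver A2-1, which entered no comparison, had 49 genes at 100 RPKM or more and at least 10-fold above their median in the 11 samples.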

How the results depend on the processing

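The counts of genes that differed between the tissues depended on scaling. Against 7285 genes in the deposited values (6493 higher in kidney, 792 in liver), 3529 passed with median-of-ratios factors (1817 and 1712), 3458 with quantile normalization (1912 and 1546) and 4146 with equal sums without the 100 highest genes of any sample (2963 and 1183). With liver A2-1 kept, the scaled values gave 2175 genes (1174 and 1001) in place of 3529, and 329 genes (156 with the larger kidney excess in A2, 173 in A1) in place of 717 differed between the animals. The difference for the 10 highest genes was then -10.8 percentage points in place of -4.29. A pseudocount of 0.1, with liver A2-1 left out, gave 1167 genes that differed between the animals in place of 717, 791 of them with the larger excess in A1. The cause of these shifts was not tested.

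Leaving out each of the 11 samples in turn gave 7044 to 7548 genes in the deposited values (6235 to 6757 and 788 to 809) and 3475 to 3668 in the scaled values (1785 to 1885 and 1673 to 1783). It gave 599 to 804 genes that differed between the animals (259 to 293 and 322 to 539), a difference of 2075 to 2324 expressed genes, and a difference of -4.95 to -3.68 percentage points for the 10 highest genes. With animal as a replicate block, 7385 and 3599 genes passed, and with 11 samples as units and animal and number as replicate block 7498 and 3779. Sample number as a block gave 674 genes for the interaction. The block changed no call of the named genes. The 4 named genes kept direction and significance in all 25 alternatives each, with adjusted p-values of at most 0.00702 in limma. This follows largely from the choice, since they were picked as the largest differences called on both scales in the same samples. Only 2 animals were sampled, and low values are limited by the unknown depth.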
